A study of Homo sapiens with 6 samples.

Results

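A set of 10 Krüppel-like factor (KLF) mRNAs, KLF2, KLF3, KLF4, KLF5, KLF6, KLF7, KLF9, KLF10, KLF11 and KLF13, were followed in A549 lung adenocarcinoma cells with and without the MIR21 gene. They were taken by gene symbol from an expression table of 58174 genes, and all 10 had a row and passed the filter on low values (a mean of at least 0.5 FPKM, read fragments scaled by gene length and library size), as did 16006 genes in all. Ctrl denotes the parental A549 population (3 libraries). MIR21-KO denotes A549 cells in which Cas9 and a pair of guide RNAs had removed a stretch of the MIR21 locus (3 libraries). Both groups were grown in the same medium and harvested 48 h after seeding, and polyA RNA was sequenced. MIR21-KO cells descended from sorted single cells, whereas Ctrl cells did not. How many clones these libraries represent is not given in the sources used here, and clonal differences and effects of the deletion cannot be told apart. The study describes the samples of a group as independent, without saying whether those of MIR21-KO shared a clone, so p-values measure the spread between these libraries.

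KLF proteins are transcription factors that share a C-terminal zinc finger domain and bind GC-rich and CACCC elements in promoters and enhancers. Their N-terminal parts differ and set what they recruit: KLF2, KLF4, KLF5, KLF6 and KLF7 act largely as activators, KLF3 recruits the CtBP corepressors, and KLF9, KLF10, KLF11 and KLF13 bind the corepressor SIN3A. In epithelia, KLF5 is known for sustaining proliferation and KLF4 for promoting differentiation and cell cycle exit. MicroRNAs such as miR-21-5p pair through their seed with sites in 3′ UTRs of mRNAs and lower the level or translation of these mRNAs, and KLF5 has been named as a miR-21 target.

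The 6 libraries held 10631667 to 14345209 reads in genes, and the members had between 22 and 1021 reads in a library. MIR21-KO replicates 1 and 3 stood farther apart (chi-square per degree of freedom 32.8) than any pair of Ctrl libraries (2.69 to 5.30), and MIR21-KO replicate 2 lay between them for 9 of 10 KLF members and for 61.3% of all tested genes. Results that turn on 1 of these libraries are given with and without it. The MIR21 hairpin was listed at 0 in all 6 libraries, Ctrl included, and so did not check the labels. VMP1, which contains MIR21 on the same strand, was higher in MIR21-KO (log2 fold change 0.92 ± 0.081 (SE), adjusted p = 0.000473). Epithelial keratins KRT7, KRT8 and KRT18 were at 335 to 688 FPKM in every library. KRT18 was lower in MIR21-KO without overlap (673 ± 25.3 against 422 ± 82.2 FPKM, SD, n = 3 each), with a log2 fold change of -0.69 that did not pass (adjusted p = 0.0153), while KRT7 and KRT8 overlapped between the groups. The markers of alveolar type II cells SFTPB and SFTPC had no more than 4 reads in a library, and NKX2-1 was not analysed here. The 8 listed epithelial markers summed to 1602 to 1716 FPKM in Ctrl and 1133 to 1617 FPKM in MIR21-KO. Nearly all of this was KRT7, KRT8 and KRT18. EPCAM stayed at or below 1.65 FPKM and NAPSA at or below 0.779 FPKM, both overlapping between the groups. CDH1, the E-cadherin gene of epithelial junctions, fell from 8.18 ± 0.584 to 2.86 ± 0.148 FPKM (SD, n = 3 each; adjusted p = 0.000175), and the part of CDH1 and KRT18 in the KLF results was not tested. The 7 markers of blood, endothelial and stromal cells summed to 3.39 to 3.71 FPKM in Ctrl and 3.71 to 4.84 FPKM in MIR21-KO. Nearly all of this was COL1A1, and the other 6 together stayed at or below 0.380 FPKM.

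The seed of miR-21-5p and the places where it could pair with KLF mRNAs are printed because they separate the members by a feature that the expression values did not define. The mature strand comes from RefSeq (GRCh38.p14, chr17:59841273-59841294, plus strand), with bases 2 to 8 in capitals. The longest annotated 3′ UTR of each member (GENCODE 29, GRCh38) was searched on the transcribed strand for ATAAGCT, the complement of the seed, for TAAGCTA, which is its last 6 bases followed by A, and for ATAAGCTA, which holds both. Capitals mark the matches.
miR-21-5p: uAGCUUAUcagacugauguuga
KLF5 (8 bases, chr13:73076732-73076761, plus strand): aacctcttacaATAAGCTAaacgcaatgtc
KLF3 (8 bases, chr4:38700764-38700793, plus strand): taatatattttATAAGCTAataagactgaa
KLF6 (7 bases, chr10:3778811-3778840, minus strand): taacccattgtATAAGCTgtgtatttacaa
KLF6 (7 bases with A, chr10:3777387-3777416, minus strand): taacctaagagTAAGCTAaccacagggatt
KLF7 (7 bases, chr2:207077307-207077336, minus strand): ttttgtttgggATAAGCTttccagattatc
KLF9 (7 bases, chr9:70386975-70387004, minus strand): actttttgaacATAAGCTgcacttttattt

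The 8-base matches lay at base 857 of 1656 in the KLF5 3′ UTR and at base 3512 of 3779 in that of KLF3. No match of 7 or 8 bases was found in the searched 3′ UTRs of KLF2, KLF4, KLF10, KLF11 and KLF13. Among 18871 protein-coding genes with an annotated 3′ UTR, 2.47% held an 8-base match and 13.0% a match of 7 or 8 bases. The 3′ UTRs of the KLF members were longer than those of other genes, with a median of 2754 bases against 1370 bases in the 11644 tested protein-coding genes. Per 10 kb of 3′ UTR, the members held 1.98 matches of 7 or 8 bases and the tested genes 0.873. Not every annotated 3′ UTR held a match of 7 or 8 bases: 1 of 2 did for KLF3, 2 of 3 for KLF6 and 2 of 5 for KLF7. For KLF5 it was 2 of 2 and for KLF9 1 of 1. Which of these 3′ UTRs A549 cells express was not tested. A match describes these letters and not a site in use.

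Of the 10 members, 2 fell in MIR21-KO, KLF4 and KLF5, and 1 rose, KLF13, at an adjusted p under 0.01 (limma on log2(FPKM + 0.1), two-sided, adjusted over all tested genes). Over all tested genes 16.0% passed this threshold, 7.66% higher and 8.38% lower in MIR21-KO. The groups did not overlap for 7 members, of which KLF2, KLF7, KLF9, KLF11 and KLF13 were higher and KLF4 and KLF5 lower in MIR21-KO, against 48.1% of all tested genes that did not overlap. The median log2 fold change of the members was 0.37, beside -0.02 over all tested genes, and the median size regardless of sign was 0.63, beside 0.35.

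**Figure D1:**
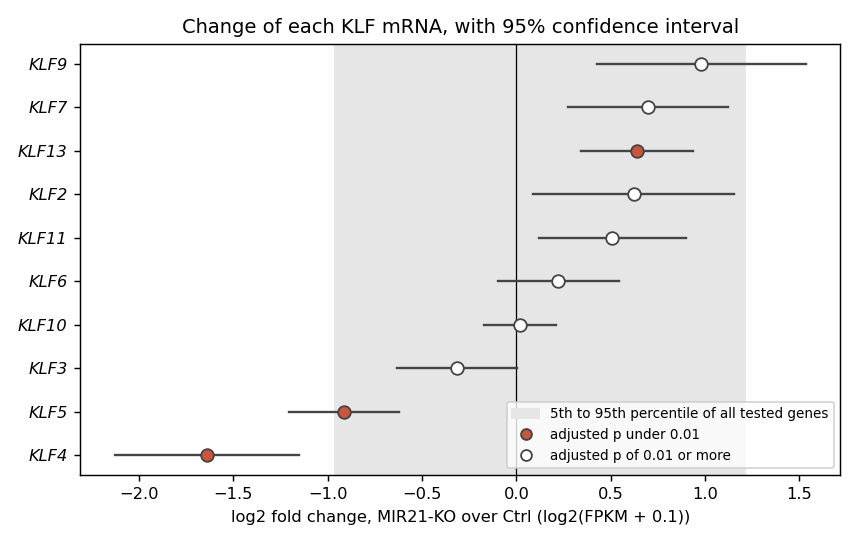
Log2 fold change of each KLF mRNA (MIR21-KO over Ctrl, n = 3 libraries each) with its 95% confidence interval, ordered by size; red points passed an adjusted p under 0.01, and the grey band spans the 5th to 95th percentile of all tested genes (-0.96 to 1.21). KLF4 at -1.64 is the member that lies outside the band, and KLF5 and KLF13 are the other red points.

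KLF4, a reprogramming factor that also promotes epithelial differentiation, was at 1.57, 1.83 and 2.30 FPKM in Ctrl and at 0.542, 0.491 and 0.569 FPKM in MIR21-KO. Every MIR21-KO library lay below every Ctrl library, at 28.1% of the Ctrl mean (1.90 ± 0.370 against 0.534 ± 0.0395 FPKM, SD, n = 3 each). KLF4 fell by 1.64 on the log2 scale (SE 0.20, 95% confidence interval -2.13 to -1.15, adjusted p = 0.00181), a change larger than that of 95.9% of the tested genes. These values rest on few reads, 72 to 115 in Ctrl and 22 to 27 in MIR21-KO. The call was lost without Ctrl replicate 2 (adjusted p = 0.0120), without Ctrl replicate 3 (0.0131) or without MIR21-KO replicate 2 (0.0116). The direction held in all of these, with log2 fold changes between -1.76 and -1.50 over the 6 ways of leaving 1 library out.

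KLF5, which drives proliferation of epithelial progenitors, was at 17.1, 14.7 and 15.9 FPKM in Ctrl and at 7.28, 8.22 and 9.72 FPKM in MIR21-KO. The groups were well apart, the highest MIR21-KO library lying below the lowest Ctrl library. The mean went from 15.9 ± 1.20 to 8.41 ± 1.23 FPKM, or 53.0% of Ctrl. KLF5 fell by 0.91 on the log2 scale (SE 0.12, 95% confidence interval -1.21 to -0.62, adjusted p = 0.00244), on 386 to 846 reads a library. The fall is in the mRNA that carries the 8-base match printed above as aacctcttacaATAAGCTAaacgcaatgtc, at chr13:73076743-73076750. Without Ctrl replicate 1, 2 or 3 the adjusted p was 0.0151, 0.0103 and 0.0152, and without MIR21-KO replicate 2 it was 0.0167, so the call was lost in these 4 cases, while the log2 fold change stayed between -1.02 and -0.82.

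KLF2, a regulator of endothelial and T cell quiescence, was at 1.91, 1.75 and 1.88 FPKM in Ctrl and at 3.86, 3.04 and 2.06 FPKM in MIR21-KO. All MIR21-KO libraries were above all Ctrl libraries, but replicate 3 only by a small margin. The log2 fold change was 0.62 (95% confidence interval 0.09 to 1.16) and did not pass (adjusted p = 0.0775). Without MIR21-KO replicate 3 it was 0.86 and passed (adjusted p = 0.00694), so the call on KLF2 turned on that library. In the other 9 members, MIR21-KO replicate 3 lay above replicate 1, whereas in KLF2 it lay below. How many of all tested genes had either order was not counted. MIR21-KO replicates 1 and 3 stood farther apart than any pair of Ctrl libraries.

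KLF6, a broadly expressed factor with reported tumor suppressor activity, was at 9.88, 9.50 and 9.18 FPKM in Ctrl and at 9.07, 11.8 and 12.8 FPKM in MIR21-KO. The groups overlapped through MIR21-KO replicate 1, which lay below all Ctrl libraries. The log2 fold change was 0.22 (95% confidence interval -0.10 to 0.54, adjusted p = 0.248). KLF7, the closest relative of KLF6 and best known from neurons, was at 3.06, 2.95 and 2.62 FPKM in Ctrl and at 3.62, 5.19 and 5.59 FPKM in MIR21-KO, without overlap. Its log2 fold change of 0.70 (95% confidence interval 0.27 to 1.12) missed the threshold (adjusted p = 0.0251) and passed without MIR21-KO replicate 1 (0.88, adjusted p = 0.00409).

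KLF3, the CtBP-recruiting repressor, was at 6.61, 6.47 and 6.06 FPKM in Ctrl and at 4.46, 4.84 and 6.16 FPKM in MIR21-KO. Replicates 1 and 2 of MIR21-KO lay below all Ctrl libraries and replicate 3 lay within them. The log2 fold change was -0.32 (95% confidence interval -0.63 to 0.00, adjusted p = 0.117). The longest KLF3 3′ UTR carries the other 8-base match, taatatattttATAAGCTAataagactgaa, and 1 of 2 annotated KLF3 3′ UTRs held a match. An antisense gene, KLF3-AS1, overlaps KLF3. It had 137 reads over all 6 libraries, against at least 373 in each library for KLF3, and how the authors' counting used strand is not given in the sources used here.

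Among the SIN3A-binding members, KLF13, a factor first studied in erythroid cells and T cells, was at 3.48, 2.71 and 3.33 FPKM in Ctrl and at 4.68, 5.09 and 5.16 FPKM in MIR21-KO. No library of one group reached the other, and the mean went from 3.17 ± 0.411 to 4.98 ± 0.259 FPKM (1.57-fold). KLF13 rose by 0.64 on the log2 scale (SE 0.12, 95% confidence interval 0.34 to 0.93, adjusted p = 0.00942). The call stood at the edge of the threshold: it was lost whichever library was left out (adjusted p = 0.0228, 0.0271 and 0.0317 without Ctrl replicates 1, 2 and 3, and 0.0153, 0.0468 and 0.0170 without replicates 1, 2 and 3 of MIR21-KO).

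KLF9, which is induced by glucocorticoid and thyroid hormones, was at 0.698, 0.485 and 0.721 FPKM in Ctrl and at 1.16, 1.28 and 1.59 FPKM in MIR21-KO. The groups did not overlap, and the mean was 2.12-fold higher in MIR21-KO on 27 to 107 reads a library. With a log2 fold change of 0.98 (95% confidence interval 0.43 to 1.54) KLF9 had the largest positive value of the members but missed the threshold (adjusted p = 0.0194). KLF11, a TGF-β-inducible repressor also known from pancreatic beta cells, was at 1.69, 1.32 and 1.56 FPKM in Ctrl and at 1.89, 2.35 and 2.40 FPKM in MIR21-KO. Its groups did not overlap either, and its log2 fold change of 0.51 (95% confidence interval 0.12 to 0.90) did not pass (adjusted p = 0.0540).

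KLF10, the other TGF-β-inducible early gene of the family, was at 16.2, 15.9 and 16.7 FPKM in Ctrl and at 15.2, 16.5 and 17.8 FPKM in MIR21-KO. The groups overlapped, and the log2 fold change of 0.02 had a 95% confidence interval from -0.17 to 0.21 (adjusted p = 0.883). Its sign turned without MIR21-KO replicate 3 (-0.036) and with libraries scaled by total reads (-0.018).

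**Figure D2:**
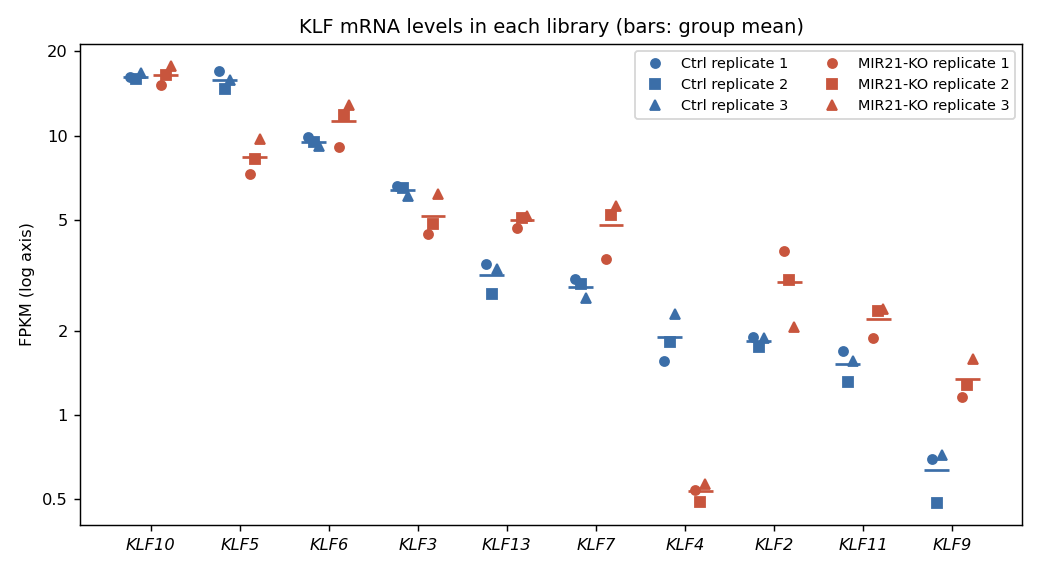
FPKM of the 10 KLF mRNAs on a log axis in each Ctrl (blue) and MIR21-KO (red) library, with the symbol giving the replicate and the bar the group mean (n = 3). KLF4 drops from a mean of 1.90 to 0.534 FPKM and KLF5 from 15.9 to 8.41 FPKM, while the KLF10 libraries of both groups lie between 15.2 and 17.8 FPKM.

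The order of the KLF mRNAs by FPKM, a level per gene length, differed between the groups. In Ctrl, KLF10 (16.3 ± 0.421 FPKM) and KLF5 (15.9 ± 1.20 FPKM) led without a difference beyond their spread, followed by KLF6, KLF3, KLF13 and KLF7. KLF13 and KLF7 overlapped each other, as did KLF4 and KLF2 after them, and KLF11 and KLF9 closed the order. In MIR21-KO, KLF10 (16.5 ± 1.29 FPKM) led alone, KLF6 (11.2 ± 1.94 FPKM) overlapped with KLF5 (8.41 ± 1.23 FPKM), and KLF3, KLF13 and KLF7 overlapped from one to the next at means of 5.15, 4.98 and 4.80 FPKM. KLF4 was last of the 10 in MIR21-KO, below every KLF9 value of that group.

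The 10 KLF mRNAs summed to 60.0 ± 2.29 FPKM in Ctrl and to 58.1 ± 6.07 FPKM in MIR21-KO, with overlapping libraries (51.7 to 63.8 FPKM in MIR21-KO). The make-up of this sum differed more than its size. KLF5 made up 27.5, 25.5 and 26.3% of it in the Ctrl libraries and 14.4 ± 0.702% (SD, n = 3) in MIR21-KO, where the highest library was at 15.2%. The share of KLF4 was 3.17 ± 0.646% and 0.924 ± 0.110%. KLF6 took 15.9 ± 0.626% and 19.2 ± 1.48%, KLF13 took 5.28 ± 0.501% and 8.59 ± 0.481%, and KLF7 took 4.80 ± 0.403% and 8.19 ± 1.03%. Because the shares of a library have a fixed total, a smaller KLF5 share raises the others. KLF6 and KLF7 did not pass in their own fold changes. In bulk RNA, fewer cells that express a gene and less RNA of it per cell cannot be told apart.

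**Figure D3:**
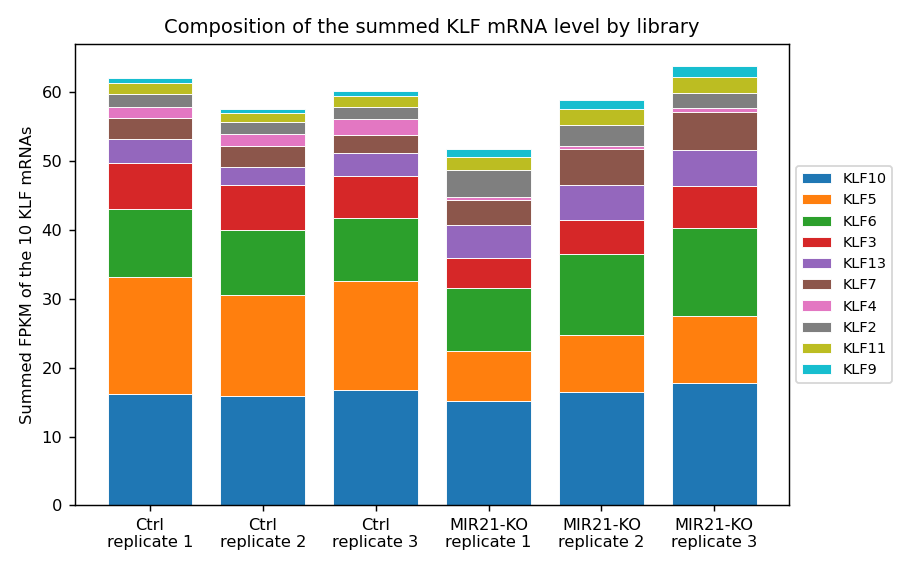
Summed FPKM of the 10 KLF mRNAs in each library, stacked by gene from 0. The total stays between 51.7 and 63.8 FPKM, while the KLF5 segment narrows from 26.4% of the sum in Ctrl to 14.4% in MIR21-KO and the KLF13 and KLF7 segments widen.

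Ratios within a library do not depend on scaling between libraries. The ratio of KLF5 to KLF10 FPKM, chosen after the values were seen, was 1.06, 0.923 and 0.948 in Ctrl and 0.479, 0.498 and 0.548 in MIR21-KO. It did not overlap between the groups (0.976 ± 0.0711 against 0.508 ± 0.0353). A two-sided exact permutation test gave p = 0.1, the smallest p that 3 libraries against 3 allow, and a ratio picked for its values gains no support from it. The ratio of KLF13 to KLF3, chosen in the same way, went from 0.498 ± 0.0701 to 0.979 ± 0.122, with the same smallest p (exact permutation test, p = 0.1).

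Read against the seed matches, the KLF members did not share 1 direction. The 5 members with a match of 7 or 8 bases had log2 fold changes from -0.91 (KLF5) to 0.98 (KLF9) with a median of 0.22, through -0.32 for KLF3, 0.22 for KLF6 and 0.70 for KLF7. The 5 without such a match ranged from -1.64 (KLF4) to 0.64 (KLF13) with a median of 0.51. KLF3 and KLF5, with the 8-base matches, were the members with a match whose values were negative. KLF3 overlapped between the groups and did not pass (limma, adjusted p = 0.117). Whether the matches had a part in any of these values was not tested. All 10 members held the pentamer ATTTA, the core of AU-rich elements found in short-lived mRNAs, as did 73.4% of the tested protein-coding genes. These counts were not adjusted for 3′ UTR length, a median of 2754 bases in the members and 1370 bases in the tested genes. The density of ATTTA was 0.893 to 3.56 per kb of 3′ UTR. It was above the median of 1.66 per kb over the tested genes in 9 of the 10 members, KLF13 being the exception. For let-7, another abundant miRNA family, KLF9 was the member whose searched 3′ UTR held a 7-base match to the seed (CTACCTC), which 18.0% of the tested genes held at 7 or 8 bases. Outside the longest 3′ UTRs, 1 of 3 annotated 3′ UTRs of KLF6 held a let-7 match of 7 or 8 bases. The mature let-7a-5p strand (RefSeq, GRCh38.p14, chr9:94175962-94175983, plus strand) and the match in KLF9 (GENCODE 29) are shown with the seed and the match in capitals.
let-7a-5p: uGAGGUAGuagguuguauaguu
KLF9 (7 bases, chr9:70385789-70385818, minus strand): aagaacactttCTACCTCtgtttcagattt

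The genes whose pattern over the 6 libraries was most like that of KLF5, by Pearson's r of log2(FPKM + 0.1) among 11718 tested protein-coding genes, were TTF2 (0.999), POLQ (0.999) and ECT2 (0.999). TTF2 encodes a transcription termination factor, POLQ a DNA polymerase of end joining and ECT2 an exchange factor needed for cytokinesis. For KLF4 they were ARHGEF16 (0.995), DHX38 (0.995) and STARD3NL (0.994). These values describe 6 libraries that fall into 2 groups, so any gene that differed evenly between the groups scores high: 1152 genes exceeded 0.95 with KLF5 and 835 with KLF4.

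The rest of the KLF and SP family showed 1 call among its 8 tested genes, beside 16.0% called over all tested genes. SP9, a factor of limb and forebrain development, was at 5.69, 4.41 and 4.41 FPKM in Ctrl and at 2.90, 2.43 and 1.81 FPKM in MIR21-KO. The groups did not overlap, and SP9 fell by 1.01 on the log2 scale (adjusted p = 0.00964). This call was lost without Ctrl replicate 1 (0.0398), 2 (0.0292) or 3 (0.0310) or MIR21-KO replicate 2 (0.0380). SP4, a factor best known from neurons, was at 1.40, 1.54 and 1.47 FPKM in Ctrl and at 0.565, 0.603 and 0.866 FPKM in MIR21-KO. Its groups did not overlap either, and its log2 fold change of -1.03 just missed the threshold (adjusted p = 0.0115), which it passed in 6 of 19 other settings, among them without MIR21-KO replicate 3 (0.00520). KLF16, a SIN3A-binding relative of KLF9 and KLF13, lay above every member in each Ctrl library, at 19.7 ± 2.01 FPKM in Ctrl and 15.1 ± 2.18 FPKM in MIR21-KO (-0.38, adjusted p = 0.0634). It passed with GC and length trends removed (-0.53, adjusted p = 0.000963). KLF12, a CtBP-recruiting relative of KLF3, was at 0.984 ± 0.0115 and 1.34 ± 0.392 FPKM (adjusted p = 0.257). Of the 8 family genes under the filter, 7 had at most 4 reads in any library. KLF8 and SP8 had 0 reads in all libraries, which allows up to 0.0309 FPKM for KLF8 and 0.0750 FPKM for SP8 at a floor of 3 reads (counting error only). The exception was KLF17, named after its values were seen, at 0.176, 0 and 0.280 FPKM in Ctrl and 0.844, 0.783 and 0.566 FPKM in MIR21-KO, without overlap and not tested.

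Genes that act with or upstream of KLF proteins were taken from lists. None of the 8 corepressor genes (CTBP1, CTBP2, SIN3A, SIN3B, HDAC1, HDAC2, HDAC3 and SAP30) passed in limma. Of these, 4 had an unadjusted p under 0.05 and 2 passed in voom on recovered reads. Over all 16006 tested genes, 16.0% passed in limma, 6910 had an unadjusted p under 0.05 and 3520 passed in voom. The log2 fold changes of the corepressor genes ran from -0.30 to 0.05. None of the 3 coactivators (EP300, CREBBP and KAT2B) passed, 0 had an unadjusted p under 0.05, and voom called 0. Of the 6 tested genes of the ERK5-MEF2 pathway, a kinase cascade known to induce KLF2 and KLF4, MAP3K3, a kinase at its top, rose from 5.98 ± 0.401 to 8.28 ± 0.463 FPKM (0.46, adjusted p = 0.00946). This call was lost whichever library was left out (adjusted p 0.0140 to 0.0454, the lowest without MIR21-KO replicate 3 and the highest without Ctrl replicate 3). It was also lost in voom (adjusted p = 0.0108) and in limma with GC and length trends removed (0.0246). Of the 6 tested genes, 3 had an unadjusted p under 0.05 in limma, and voom called 0. KLF2 and KLF4 themselves had log2 fold changes of 0.62, which did not pass, and -1.64. Whether the pathway had a part in either was not tested.

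Of 8 genes for ubiquitin ligases reported to act on KLF proteins, 1 passed the threshold, beside 16.0% of all tested genes. FBXO32, the F-box protein atrogin-1 known from muscle atrophy, was at 2.55, 2.41 and 2.55 FPKM in Ctrl and at 12.6, 14.7 and 15.5 FPKM in MIR21-KO. It rose by 2.46 on the log2 scale (adjusted p = 4.2e-05) and kept its call without any of the libraries. WWP1 and FBXW7, ligases reported for KLF2 and KLF5, were at log2 fold changes of -0.21 (adjusted p = 0.377) and 0.34 (adjusted p = 0.134).

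Reported KLF targets went both ways. Of 14 listed, 8 were tested, 2 rose, 2 fell and 4 did not pass. Over all tested genes, 7.66% passed as higher and 8.38% as lower in MIR21-KO. CCND1, the cyclin D1 gene that KLF5 is known to induce and KLF4 to repress, fell from 78.6 ± 3.02 to 26.8 ± 1.52 FPKM (-1.55, adjusted p = 6.4e-05). PPARG, an adipogenic nuclear receptor gene downstream of several KLF proteins, fell from 11.3 ± 0.141 to 5.76 ± 0.353 FPKM (-0.97, adjusted p = 0.000381). THBD, the thrombomodulin gene induced by KLF2 in endothelium, rose from 8.11 ± 0.223 to 20.5 ± 1.63 FPKM (1.33, adjusted p = 0.000145). SMAD7, the inhibitory SMAD gene repressed by KLF10, rose from 8.17 ± 0.812 to 15.2 ± 0.753 FPKM (0.89, adjusted p = 0.00101). CDKN1A, the p21 gene that KLF4 is known to induce, was at 90.2 ± 2.77 and 109 ± 11.5 FPKM (0.27, adjusted p = 0.0736). The 6 untested targets, S1PR1, NOS3, MAOA, CCL5, LAMA1 and IVL, stayed at or below 0.307 FPKM. Whether any of these differences came from KLF proteins was not tested, as only mRNA was measured.

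**Figure D4:**
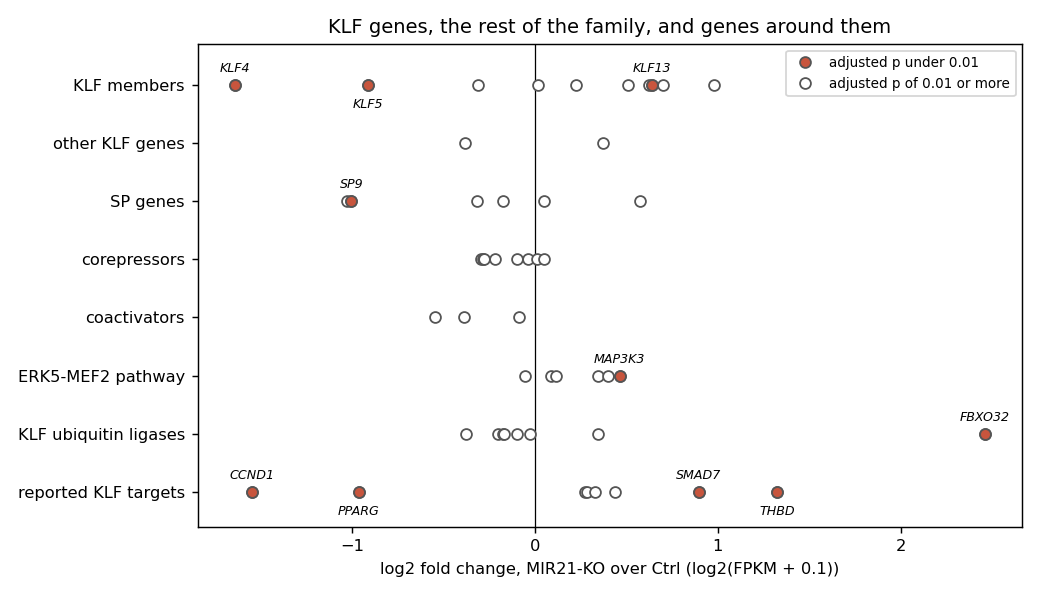
Log2 fold change (MIR21-KO over Ctrl, n = 3 each) of every tested gene in the KLF members, the rest of the KLF and SP family and 5 lists around them, 1 point per gene; red points passed an adjusted p under 0.01 and carry their names. Corepressors and coactivators hold no red point, while 4 of the 8 reported KLF targets do, 2 on each side of 0. Over all tested genes, 16.0% passed.

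How firmly each KLF call stood was read from 19 other settings of the same test. KLF4 passed in 15 of them and KLF5 in 14, and neither turned its sign. KLF13 passed in 8 of 19, KLF9 in 3 of 18, KLF7 in 2 and KLF2 in 1. KLF3, KLF6, KLF10 and KLF11 passed in none of the settings, their lowest adjusted p values being 0.0109, 0.0201, 0.473 and 0.0256. Unadjusted p values under 0.05 were obtained for 7 of the 10 members in the fit as reported, beside 6910 of all 16006 tested genes. KLF10 was the only member whose sign turned in any of these settings.

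**Figure D5:**
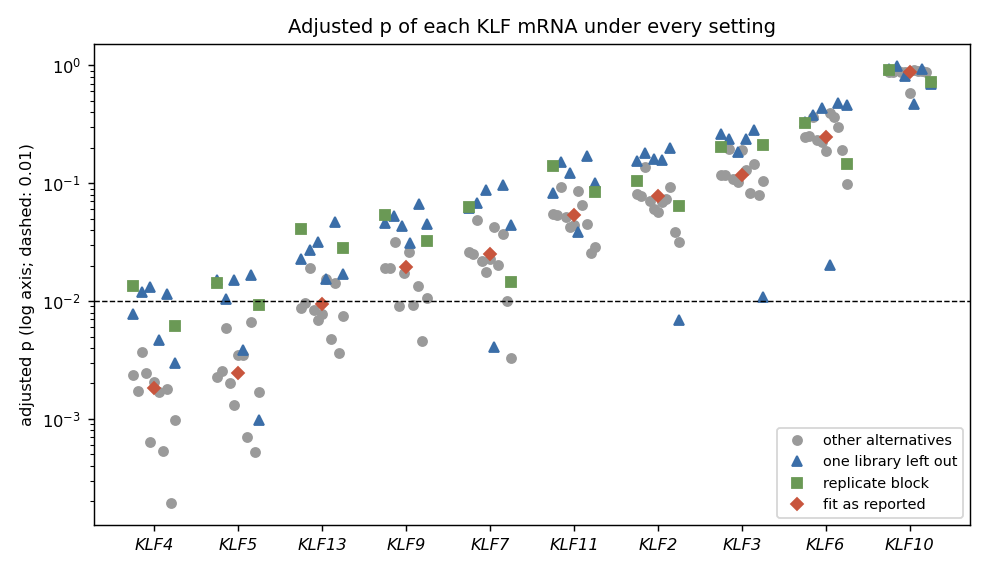
Adjusted p (log axis) of each KLF mRNA in the fit as reported (red) and in every other setting of the test, with the dashed line at 0.01; blue triangles leave 1 library out and green squares hold the replicate number as a block. KLF4 and KLF5 sit at 0.00181 and 0.00244 as reported and cross the line when certain libraries are left out or with the block, KLF13 straddles the line, and KLF10 stays at 0.473 or above.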

How the data were processed

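PolyA RNA-seq of 6 A549 libraries (Ctrl and MIR21-KO, 3 each, grouped by sample title) was used. The authors deposited one table of FPKM values per gene and library with gene lengths. The submitters' processing notes name cutadapt 1.14, HISAT2 2.1.0, SAMtools 1.5, featureCounts 1.5.3, edgeR 3.18.1 and hg38, without settings. The annotation release is not given in the sources used here. Library preparation was strand-specific per the labels. Columns of the authors' own fold changes, p-values and FDRs were not used. FPKM times gene length gave whole reads (tolerance 0.01) for 100% of values. All 37 mitochondrial genes were at 0 in every library.

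Because the values are FPKM, no count model was the main test. The 16006 genes averaging 0.5 FPKM or more went into limma 3.58.1 (R 4.3.3, with trend and robust fitting) on log2(FPKM + 0.1), two-sided, with Benjamini-Hochberg adjustment over all of them and a threshold of 0.01. Fold changes on this scale understate changes of low genes. These steps were first tested on simulated data, where 158 of 200 genes with a 2-fold change were recovered, with 8 false calls. The simulated libraries all had the same spread beyond counting noise, whereas the MIR21-KO libraries differed more among themselves than the Ctrl libraries. Depth set a step of 0.0731 to 0.0930 FPKM per read for a 1 kb gene. No 2 libraries agreed within sampling noise.

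The KLF members and all gene lists were chosen with earlier results of these data known. All members were named, and of the other lists every gene that passed; further genes were named as context after their values were seen. Coordinates and 3′ UTRs are from GENCODE 29 (57836 of 58174 gene IDs matched), miRNAs from RefSeq. Python 3.11.15 with pandas 2.3.3 was used for the remaining steps. Alternatives varied the pseudocount, filter, scaling, test, threshold, genes tested, GC and length trends, a replicate block and the libraries.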

Additional observations from a re-analysis of the deposited data

How the results depend on the processing

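In the fit as reported 3 KLF members, 1 other KLF or SP gene, 6 partner, regulator and target genes and 2568 genes in all passed. With an adjusted p under 0.05 as the threshold these counts were 5, 3, 12 and 5114. With GC and length trends removed, 3 other KLF or SP genes (SP4, SP9 and KLF16) and 3960 genes in all passed. The count of other KLF or SP genes was 2 with a mean of at least 10 reads, with voom on recovered reads and with protein-coding genes only, and 0 with no filter on low values (5 with an unadjusted p under 0.05) or with median-ratio scaling (4 with an unadjusted p under 0.05), where SP9 reached adjusted p values of 0.0207 and 0.0104. Leaving 1 library out gave 0 to 3 KLF members, 0 to 2 other KLF or SP genes (3 to 5 with an unadjusted p under 0.05), 5 to 9 partner, regulator and target genes and 768 to 3400 genes in all. The KLF members that passed numbered 1 without Ctrl replicate 1, 0 without Ctrl replicate 2, Ctrl replicate 3 or MIR21-KO replicate 2 (5 to 6 with an unadjusted p under 0.05), and 3 without MIR21-KO replicate 1 or 3. A fit that leaves out a library has fewer samples. KLF10 turned its sign with scaling by total reads (-0.018), with voom on recovered reads (-0.022) and without MIR21-KO replicate 3 (-0.036, in a range of -0.036 to 0.076 over the libraries left out). KLF13 did not pass with no filter (adjusted p = 0.0192), with scaling by total reads (0.0153) or without trend and robust fitting (0.0143). KLF9 passed with at least 10 reads (0.00915), in voom (0.00925) and with protein-coding genes only (0.00456), and KLF7 with GC and length trends removed (0.00328). KLF9 had no value with a filter of at least 1 FPKM. The cause was not tested.

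Replicate numbers did not pair the libraries: the deviations of same-numbered libraries from their group means correlated at -0.171, -0.0177 and -0.0174. In the fit blocked on replicate number, 0 KLF members (6 with an unadjusted p under 0.05), 0 other KLF or SP genes (4 with an unadjusted p under 0.05), 5 partner, regulator and target genes and 651 genes in all passed. With the block and the GC and length trends removed, 2 members and 2 other KLF or SP genes (SP9 and KLF16) passed. Low depth limits KLF2, KLF4 and KLF9, with 22 to 115 reads a library.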
